A study of Rattus norvegicus with 12 samples.

Results

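The genes described here make sterols, control the SREBP transcription factors, and move or export cholesterol. They came from a list of 33 genes, and a gene was measured where the array annotation gave a probe set its symbol and no other. That held for 29 of the 33, with 30 probe sets, out of 14324 named genes and 27342 probe sets in all. Hmgcs1, Mvk and Fdps were not analysed here, and the probe set of Srebf1 carries a second gene's symbol, so it was left out. The study compared DEHP-treated with vehicle-treated heart muscle cells of 2-day-old Sprague-Dawley rats, freed by enzymatic digestion and grown as monolayers for 3 days before treatment. The DEHP group (6 cultures) had 50 µg/mL DEHP in 0.1% DMSO for 3 days. The control group (6 cultures) had 0.1% DMSO alone for the same time, so both groups carried the solvent. DEHP is the phthalate ester di(2-ethylhexyl) phthalate, added to soften plastics such as medical tubing, from which it can leach. All cells came from 1 litter, so p-values measure the spread between cultures and arrays and not between litters. The labels name no genetic change in either group.

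Animal cells build cholesterol from acetyl-CoA by way of mevalonate, farnesyl diphosphate, squalene and lanosterol. When membranes of the endoplasmic reticulum are short of sterol, the escort protein SCAP carries SREBP factors to the Golgi, where they are cut and released to switch on the enzymes of the pathway. INSIG proteins hold SCAP back when sterol is plentiful. The liver X receptors, LXR alpha and beta, sense oxidised sterols and switch on genes of cholesterol export such as Abca1 and Abcg1, and also Mylip, whose product marks lipoprotein receptors for destruction.

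Promoters of sterol genes are known to bind SREBP and NF-Y in mammals. Stretches upstream of a transcription start are shown for 3 synthesis enzymes and for 2 genes of SREBP control, all of which fell here. The stretches were taken from RefSeq promoter windows of build GRCr8. These windows run from 250 bases before to 50 after a start and held 24 of the 29 genes. Each stretch is written 5′ to 3′ on the gene's strand. Capitals mark the CCAAT box (CCAAT, or ATTGG where it lies on the other strand) and, in Srebf2, a match to an SRE-like pattern. Only stretches with such a match are shown, so they do not stand for all the genes that fell. Synthesis enzymes that fell with no CCAAT box in their window are named below.
Msmo1, chr16:29746933-29747052, plus strand: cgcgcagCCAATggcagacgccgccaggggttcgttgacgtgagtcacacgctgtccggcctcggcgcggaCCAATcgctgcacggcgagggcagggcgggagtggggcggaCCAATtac
Nsdhl, chrX:155817220-155817300, plus strand: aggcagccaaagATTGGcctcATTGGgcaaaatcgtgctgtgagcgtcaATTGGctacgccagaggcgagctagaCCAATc
Hsd17b7, chr13:84722825-84722944, minus strand: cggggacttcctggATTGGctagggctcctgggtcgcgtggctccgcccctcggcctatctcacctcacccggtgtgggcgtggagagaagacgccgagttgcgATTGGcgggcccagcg
Insig1, chr4:8057920-8057979, minus strand: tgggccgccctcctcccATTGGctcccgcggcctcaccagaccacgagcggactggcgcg
Srebf2, chr7:115543145-115543174, plus strand: gcgccATCACCCCAtgagccgcttcgcgct
The Srebf2 stretch precedes 1 annotated start but lies inside the span of the gene, which has another start upstream. The other 4 stretches lie outside the span of their genes.

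Motifs were counted on both strands over whole windows. The CCAAT box, the site of the factor NF-Y, which works beside SREBP at many sterol genes, was found in 9 of the 12 synthesis enzymes with a window (75.0%), against 38.9% of the 11823 array genes with a window and 37.5% of all 33469 windows. The GC box (GGGCGG) was found in 10 of these 12 enzymes (83.3%), against 50.8% of the array genes and 33.1% of all windows. Of the 12 listed genes outside synthesis with a window, 7 held the CCAAT box and 9 the GC box. These boxes were therefore not particular to the synthesis enzymes. The sterol element written TCACNCCAC was in 0 of the 24 genes, against 1.12% of the array genes and 1.12% of all windows. A second SRE-like pattern, ATCACNCCA, tried after the first had no match, was found in Srebf2 alone of the 24, against 0.584% of the array genes and 0.768% of all windows. The 2 sterol patterns overlap by construction, and the match in Srebf2 does not overlap a CCAAT box. An LXR element written as AGGTCA, 4 bases of any kind and AGGTCA was in 0 of the 24 genes, 0 array genes and 2 of all windows. These are matches of letters in a short window, and binding was not measured.

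Each deposited value is a ratio to the median of its probe set over the 12 arrays. The log2 ratios therefore hold differences between arrays but no level, and genes cannot be ranked by abundance. That centring also makes the 2 arrays that face each other across the gap mirror each other around 0 wherever the groups lie apart: the highest DEHP and lowest control array of a gene that fell, and the lowest DEHP and highest control array of a gene that rose. DEHP replicate 6 and control replicate 5 stood apart over all probe sets, their log2 ratios having an SD of 0.27 and 0.37, where the SD of each remaining array was between 0.15 and 0.19. Results that change without these arrays are given both ways. Because levels are not held, the presence of cardiomyocyte markers could not be checked; of 10 such markers 3 rose (among them Myh6, 1.67 ± 0.12) and 3 fell (among them Actc1, −0.22 ± 0.04). Over all genes 14.4% rose and 10.2% fell. Fewer cells of a type and less RNA per cell cannot be told apart in these cultures.

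The enzymes of sterol synthesis fell under DEHP along the whole pathway, while the genes of SREBP control, transport and export went in both directions. Of the 29 genes, 18 passed as lower and 5 as higher, and 6 did not pass (limma, adjusted p under 0.05 over all probe sets). Over all 14324 genes 10.2% were lower, 14.4% higher and 24.6% passed in either direction. Of the 15 synthesis enzymes 14 fell, 0 rose and 1 did not pass, and at an unadjusted p under 0.05 these counts were 15 lower and 0 higher. Their median log2 fold was −0.77, beside −0.02 for all genes. A fall of at least 1.5-fold was seen in 10 of the 15, against 2.79% of all genes, and a rise of that size in 1 of the 29 genes, Apoe, against 2.83% of all genes. The DEHP and control arrays did not overlap in 11 of the 15, all lower, against 6.88% of all genes lower in this way and 16.9% in either direction. Among the 14 other genes 4 fell, 5 rose and 5 did not pass, with a median of 0.05.

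**Figure D1:**
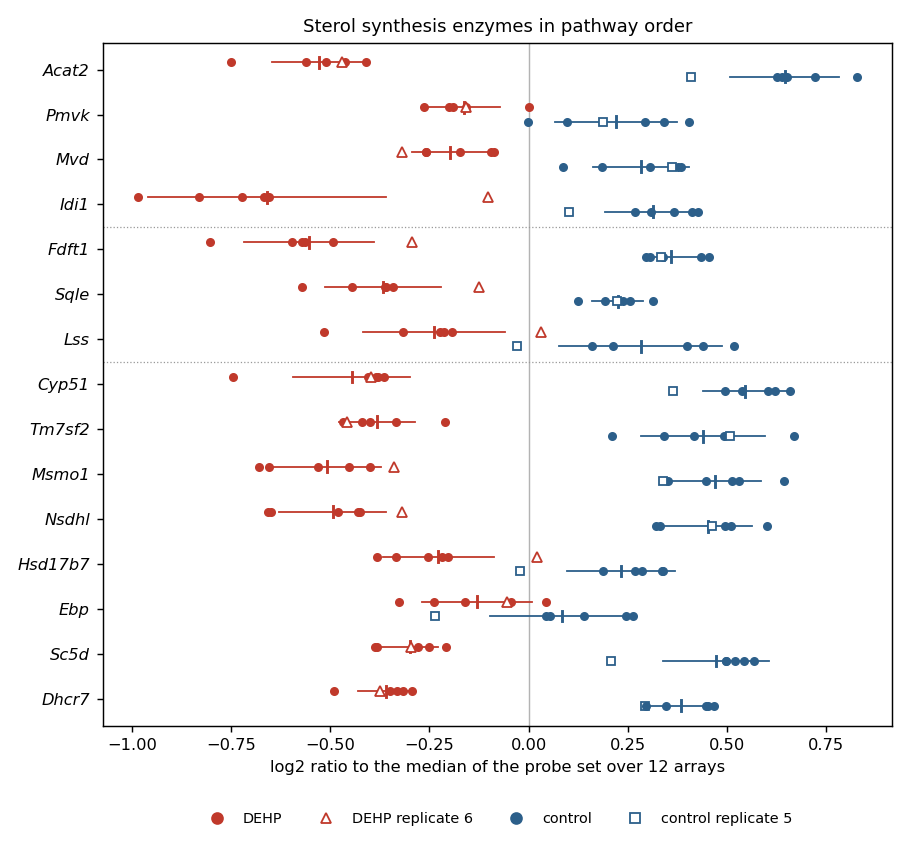
Log2 ratio of each of the 15 measured synthesis enzymes in every array (x axis), with genes down the page in pathway order, DEHP above control in each row, and bars for the mean ± SD of 6 arrays. DEHP arrays lie left of control arrays for Acat2, Cyp51, Msmo1 and Dhcr7 by a clear gap, and the groups overlap for Pmvk, Lss, Hsd17b7 and Ebp.

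The early steps, from acetyl-CoA to farnesyl diphosphate, fell in 4 of 4 measured genes. Acat2, the cytosolic thiolase that joins acetyl-CoA units at the entry of the pathway, had log2 ratios of −0.75, −0.49 and −0.41 (lowest, median and highest of 6) under DEHP, against 0.41, 0.65 and 0.83 in controls. All 6 DEHP arrays lay below all 6 controls, with a gap of 0.82 between the groups. This was the largest fall among the 29 genes, 2.25-fold (log2 fold −1.17 ± 0.07 SE, n = 6 each, limma adjusted p = 2.57e-07), and 91 of the 14324 genes fell further. Idi1, the isomerase of isopentenyl diphosphate, had −0.98, −0.69 and −0.10 under DEHP, against 0.10, 0.34 and 0.43 in controls. Its highest DEHP value was that of replicate 6, and the other 5 DEHP arrays were at −0.65 or lower. The log2 fold was −0.97 ± 0.12 over all arrays and −1.09 ± 0.07 without DEHP replicate 6 (adjusted p = 8.47e-05 and 8.99e-07).

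Mvd, the decarboxylase that makes isopentenyl diphosphate, had −0.32, −0.22 and −0.09 under DEHP, against 0.09, 0.33 and 0.39 in controls. The groups did not overlap, and the log2 fold was −0.48 ± 0.06 (adjusted p = 0.000111). Pmvk, phosphomevalonate kinase, had a median of −0.17 under DEHP and 0.24 in controls, and its highest DEHP and lowest control array met at 0. Its log2 fold of −0.38 ± 0.07 was the smallest of the early steps (adjusted p = 0.00169).

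At the squalene and lanosterol steps 3 of 3 genes fell. Fdft1, squalene synthase, which commits farnesyl diphosphate to sterols, had −0.80, −0.57 and −0.30 under DEHP, against 0.30, 0.34 and 0.45 in controls. No DEHP array reached a control array, and the transcript was 1.88-fold lower (log2 fold −0.91 ± 0.07, adjusted p = 1.5e-06). Sqle, squalene epoxidase, a rate-limiting enzyme of the later pathway, had −0.57, −0.36 and −0.12 under DEHP, against 0.12, 0.23 and 0.31 in controls (log2 fold −0.59 ± 0.06, adjusted p = 2.41e-05). Lss, lanosterol synthase, which closes the sterol rings, had −0.52, −0.22 and 0.03 under DEHP, against −0.03, 0.31 and 0.52 in controls. The overlap in Lss came from DEHP replicate 6 and control replicate 5, and its log2 fold was −0.52 ± 0.10 with them and −0.64 ± 0.08 without both (adjusted p = 0.00282 and 0.000111).

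From lanosterol to cholesterol 7 of 8 genes fell, with a median log2 fold of −0.80. Cyp51, which removes the 14-alpha methyl group of lanosterol, had −0.75, −0.39 and −0.36 under DEHP, against 0.36, 0.57 and 0.66 in controls. Msmo1, the C4-methyl oxidase, had −0.68, −0.49 and −0.34 under DEHP, against 0.34, 0.48 and 0.64 in controls. Nsdhl, the dehydrogenase of the same C4 demethylation, had −0.66, −0.45 and −0.32 under DEHP, against 0.32, 0.48 and 0.60 in controls. The groups lay apart in all 3 genes, which were 1.99-fold, 1.97-fold and 1.93-fold lower in that order. Their log2 folds were −0.99 ± 0.07, −0.98 ± 0.07 and −0.95 ± 0.07, each with an adjusted p of 9.99e-07. Msmo1 and Nsdhl are the enzymes whose promoter stretches above hold 3 and 4 CCAAT boxes. The windows of Acat2, Cyp51 and Dhcr7, which also fell, held no CCAAT box. That of Ebp, which did not pass, held the box.

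Tm7sf2, a sterol C14 reductase, had −0.47, −0.41 and −0.21 under DEHP, against 0.21, 0.45 and 0.67 in controls (log2 fold −0.82 ± 0.07, adjusted p = 4.01e-06). Sc5d, the C5 desaturase, had −0.39, −0.29 and −0.21 under DEHP, against 0.21, 0.51 and 0.57 in controls (log2 fold −0.77 ± 0.06, adjusted p = 1.8e-06). Dhcr7, the reductase that makes cholesterol itself from 7-dehydrocholesterol, had −0.49, −0.34 and −0.29 under DEHP, against 0.29, 0.40 and 0.47 in controls. None of these 3 showed any overlap between groups, and Dhcr7 had the smallest SE of the synthesis enzymes (log2 fold −0.74 ± 0.05, adjusted p = 3.29e-07). Hsd17b7, the C3-ketosteroid reductase of C4 demethylation, fell less, with −0.38, −0.24 and 0.02 under DEHP, against −0.02, 0.28 and 0.34 in controls. As in Lss, DEHP replicate 6 and control replicate 5 were the arrays that crossed, and the log2 fold was −0.46 ± 0.08 (adjusted p = 0.000761).

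Ebp, the isomerase that shifts the sterol double bond from C8 to C7, was the only synthesis enzyme measured that did not pass. It had −0.33, −0.11 and 0.04 under DEHP, against −0.24, 0.10 and 0.26 in controls. The groups overlapped, with control replicate 5 lowest among the controls. Its log2 fold was −0.21 ± 0.09 (adjusted p = 0.12) and −0.28 ± 0.07 without control replicate 5 (adjusted p = 0.0122). The measured fall of Ebp was smaller than that of Cyp51. The log2 ratio of Ebp minus that of Cyp51 averaged 0.32 ± 0.12 in DEHP arrays and −0.46 ± 0.11 in control arrays (SD, n = 6 each), a difference of 0.78 (two-sided exact permutation test over arrays, p = 0.00216, adjusted p = 0.00271 over 5 pairs of genes). The 5 pairs were chosen after the values were seen, and 0.00216 is the smallest p that 6 arrays against 6 allow. The adjustment over 5 pairs does not cover that choice, so the p-values of pairs describe the arrays and add no support.

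**Figure D2:**
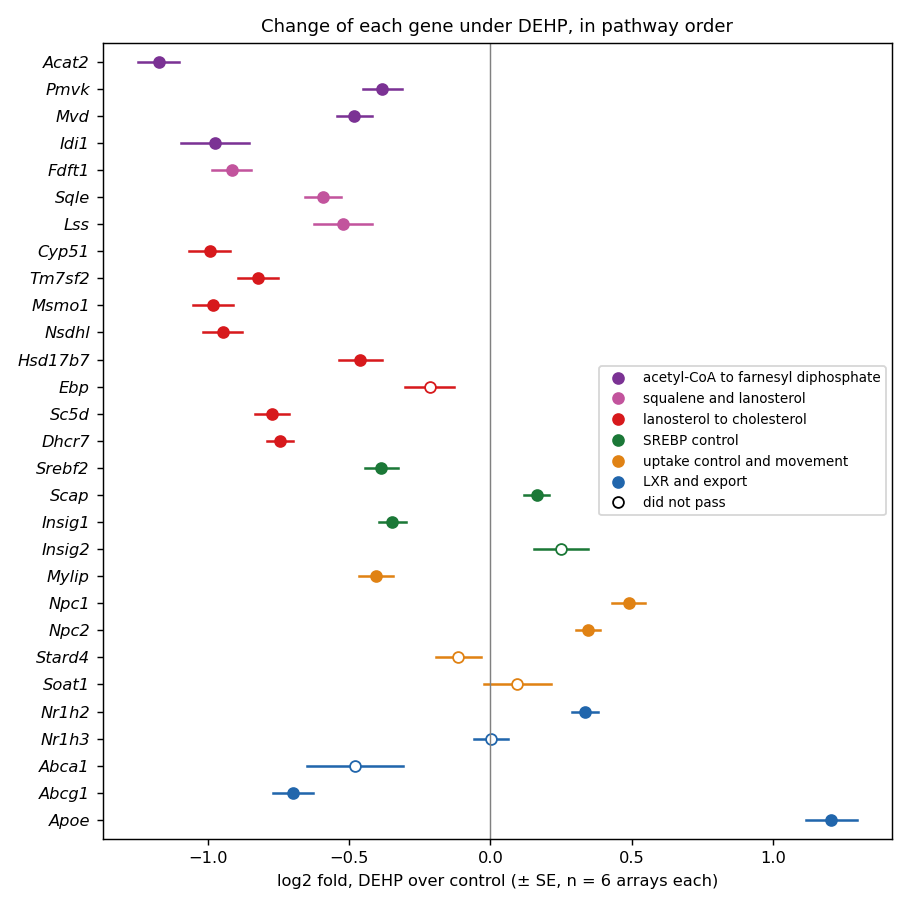
Log2 fold of DEHP over control (x axis) with its SE for the 29 genes in pathway order from top to bottom, 6 arrays per group, with filled points for genes that passed. The synthesis enzymes all sit left of 0, from −1.17 for Acat2 to −0.21 for Ebp, and the other genes spread from −0.70 for Abcg1 to 1.205 for Apoe.

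Averaged over its 15 measured enzymes, synthesis was at −0.54 to −0.24 in the DEHP arrays and at 0.23 to 0.45 in the control arrays. DEHP replicate 5 held the lowest DEHP value of 11 of the 15 enzymes, and DEHP replicate 6 the highest of 7. Control replicate 5 held the lowest control value of 9, and control replicate 6 the highest of 10. Without both of the arrays that stood apart, 15 of the 15 enzymes passed as lower and 0 rose. Over all genes 1825 were then lower, against 1460 with all arrays.

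Cell cycle markers were also lower under DEHP. Of 13 measured, 10 fell, 0 rose and 3 did not pass (13 lower and 0 higher at an unadjusted limma p under 0.05). Over all genes 10.2% fell and 14.4% rose, the background for each marker list here. Ccnb2 (−1.11 ± 0.08) had the smallest p, and Ccnb1, named after its value was seen, fell further (−1.29 ± 0.10). Their mean ran from −0.63 to −0.15 in DEHP arrays and from 0.08 to 0.46 in controls. DEHP replicate 6 was at opposite ends in the 2 lists, with the lowest cell cycle mean of the DEHP arrays (−0.63, against −0.44 to −0.15 in the other 5) and the highest synthesis mean (−0.24). Control replicate 5 was at the same end in both, with the lowest cell cycle mean (0.08) and the lowest synthesis mean (0.23) of the control arrays. Smooth muscle markers fell in 7 of 7 measured, with a mean of −1.02 to −0.51 under DEHP and 0.50 to 0.69 in controls. The part of either in the fall of the sterol enzymes was not tested. Of 7 measured markers of Schwann cells, which make much sterol for myelin, 2 fell (Pmp22, −0.30 ± 0.06, and S100b, −0.16 ± 0.05) and 0 rose, with a mean of −0.07 to 0.04 under DEHP and −0.03 to 0.22 in controls.

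Among the genes of SREBP control, 2 fell, 1 rose and 1 did not pass. Srebf2, which encodes SREBP-2, the factor that chiefly drives cholesterol synthesis, had −0.23, −0.09 and −0.05 under DEHP, against 0.05, 0.30 and 0.40 in controls. Every DEHP array lay below every control array, and the transcript was 1.31-fold lower (log2 fold −0.39 ± 0.06, adjusted p = 0.00035). Its adjusted p was 0.25 after cyclic loess normalization. Insig1, itself a target of SREBP, was measured by a pair of probe sets that did not differ in direction. The first had −0.25, −0.18 and −0.08 under DEHP, against 0.08, 0.19 and 0.28 in controls, and the second had −0.39, −0.23 and −0.05 under DEHP, against 0.05, 0.27 and 0.36 in controls. Their log2 folds were −0.35 ± 0.05 and −0.46 ± 0.07 (adjusted p = 0.00015 and 0.000315), and neither showed overlap between the groups.

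Scap, the escort of SREBP, had 0.01, 0.07 and 0.13 under DEHP, against −0.22, −0.07 and −0.01 in controls. The groups lay just apart, by 0.02, and the rise was small (log2 fold 0.16 ± 0.05, adjusted p = 0.0231). The call was lost without DEHP replicate 4 (adjusted p = 0.0536), without control replicate 3 (adjusted p = 0.0505), or without both of the arrays that stood apart (log2 fold 0.12 ± 0.04, adjusted p = 0.0553). Insig2, a paralog of Insig1 that SREBP does not drive, had −0.18, 0.15 and 0.34 under DEHP, against −0.36, −0.07 and 0.06 in controls. These groups overlapped and Insig2 did not pass (log2 fold 0.25 ± 0.09, adjusted p = 0.0955), though it did without DEHP replicate 5 (0.31, adjusted p = 0.0259). The log2 folds of the paralogs had opposite signs. This pair was chosen after its values were seen, so its p adds no support. Insig1 minus Insig2 averaged −0.29 ± 0.15 under DEHP and 0.31 ± 0.18 in controls, a difference of −0.60 (two-sided exact permutation p = 0.00216, adjusted p = 0.00271 over 5 pairs).

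**Figure D3:**
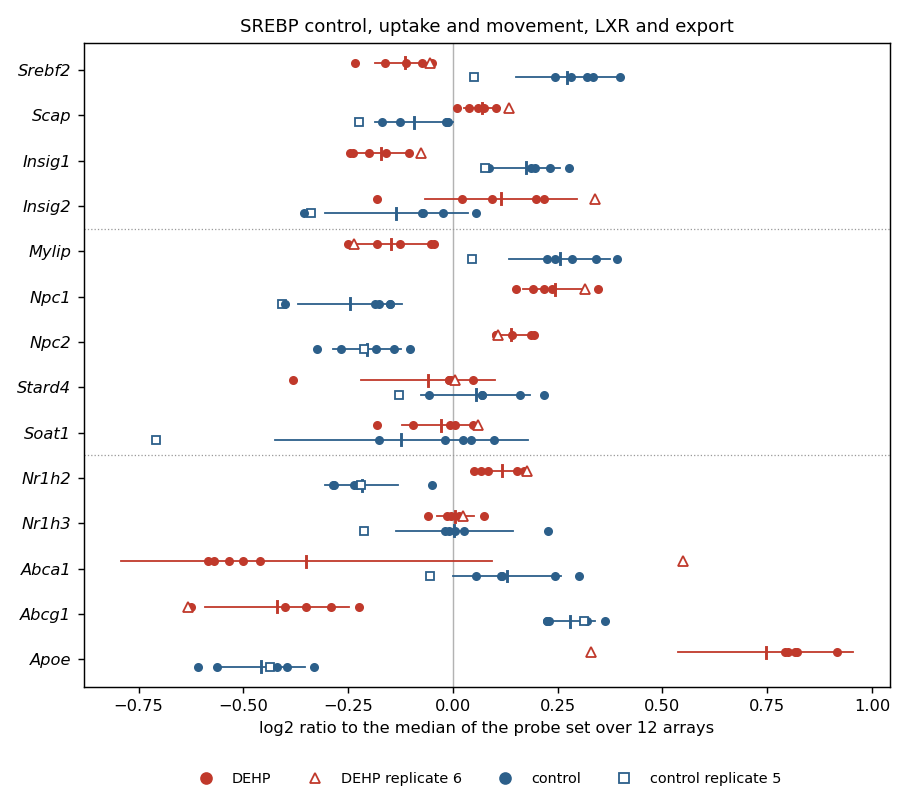
Log2 ratio in every array (x axis) of the 14 genes of SREBP control, of uptake control and movement, and of LXR and export, with DEHP above control in each row and bars for the mean ± SD of 6 arrays. Apoe lies right of its controls and Abcg1 left of them, and the open triangle of DEHP replicate 6 lies at 0.55 for Abca1, away from the other 5 DEHP arrays.

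The genes of uptake control and of cholesterol movement inside the cell split, with 1 lower, 2 higher and 2 not passing. Npc1, the membrane protein that lets cholesterol out of lysosomes, had 0.15, 0.23 and 0.35 under DEHP, against −0.41, −0.18 and −0.15 in controls. Npc2, the soluble lysosomal protein that hands cholesterol to NPC1, had 0.10, 0.12 and 0.19 under DEHP, against −0.32, −0.20 and −0.10 in controls. Both rose with no overlap between groups, Npc1 1.4-fold (log2 fold 0.49 ± 0.06, adjusted p = 6.44e-05) and Npc2 1.27-fold (0.34 ± 0.04, adjusted p = 7.1e-05). Mylip, the ubiquitin ligase that lowers lipoprotein receptors, had −0.25, −0.15 and −0.04 under DEHP, against 0.04, 0.26 and 0.39 in controls. Its groups did not overlap either, and it fell by 0.40 ± 0.06 on the log2 scale (adjusted p = 0.000372), with an adjusted p of 0.0898 after cyclic loess.

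Stard4, a soluble carrier of cholesterol and a target of SREBP-2 in mouse, had −0.38, −0.01 and 0.05 under DEHP, against −0.13, 0.07 and 0.22 in controls. It did not pass (log2 fold −0.11 ± 0.08, adjusted p = 0.39), and its lowest value was that of DEHP replicate 5. Soat1, which esterifies cholesterol for storage, ranged from −0.18 to 0.06 under DEHP and from −0.71 to 0.10 in controls. Its log2 fold was 0.09 ± 0.12 (adjusted p = 0.64), and −0.02 without control replicate 5, the array at −0.71.

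The export genes went in opposite directions. Apoe, which encodes the apolipoprotein E that takes up exported lipid, had 0.33, 0.81 and 0.92 under DEHP, against −0.61, −0.43 and −0.33 in controls. All DEHP arrays lay above all controls, with replicate 6 the lowest of them and the other 5 at 0.79 or higher. Apoe was 2.31-fold higher (log2 fold 1.205 ± 0.089, adjusted p = 1.21e-06), and 64 of the 14324 genes rose further. Without DEHP replicate 6 its log2 fold was 1.29 ± 0.05. Abcg1, a transporter that passes cholesterol to high density lipoprotein, had −0.63, −0.37 and −0.22 under DEHP, against 0.22, 0.27 and 0.36 in controls. No arrays overlapped, and Abcg1 was 1.62-fold lower (log2 fold −0.70 ± 0.07, adjusted p = 1.51e-05).

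Abca1, the transporter that loads cholesterol onto lipid-poor apolipoproteins, had −0.50, −0.53, −0.59, −0.46, −0.57 and 0.55 in DEHP replicates 1 to 6. The controls had 0.30, 0.24, 0.12, 0.05, −0.05 and 0.12. Of the DEHP arrays 5 were below every control, and replicate 6 was above every control. Over all arrays Abca1 did not pass (log2 fold −0.48 ± 0.17, adjusted p = 0.0736), and without DEHP replicate 6 the log2 fold of Abca1 was −0.66 ± 0.06 (adjusted p = 9.07e-06). Without that array the log2 fold of Abcg1 was −0.66 ± 0.07. Abca1 minus Abcg1 differed between the groups by 0.22 over all arrays (exact permutation p = 0.51) and by −0.0028 without that array (exact permutation p = 0.98). Abcg1 minus Apoe averaged −1.17 ± 0.17 in DEHP arrays and 0.74 ± 0.12 in control arrays. That is a difference of −1.90 (exact permutation p = 0.00216, adjusted p = 0.00271 over 5 pairs). Each gene's groups already lay apart, in opposite directions, so this test could give no other p and adds no support.

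Of the receptors, Nr1h2, which encodes LXR beta, had 0.05, 0.12 and 0.18 under DEHP, against −0.29, −0.23 and −0.05 in controls. It rose 1.26-fold with no overlap between the groups (log2 fold 0.33 ± 0.05, adjusted p = 0.000171), and its adjusted p was 0.065 after cyclic loess. Nr1h3, which encodes LXR alpha, ranged from −0.06 to 0.07 under DEHP and from −0.21 to 0.23 in controls. Its log2 fold was 0.0025 ± 0.06 (adjusted p = 0.98). The pair of receptors was also chosen after its values were seen, so its p adds no support. Nr1h3 minus Nr1h2 averaged −0.11 ± 0.03 under DEHP and 0.22 ± 0.18 in controls. That is a difference of −0.33 (exact permutation p = 0.00216, adjusted p = 0.00271 over 5 pairs).

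Macrophages are rich in Apoe, Abca1 and Abcg1, and their markers did not move as one. Of 18 measured macrophage and leukocyte markers, 4 rose, 2 fell and 12 did not pass. Over all genes 14.4% rose and 10.2% fell, and whether this list differs from them was not tested. Itgam (0.53 ± 0.09) and Cd68 (0.51 ± 0.11) were among the rises, and Csf1r (−0.41 ± 0.06) and Aif1 (−0.19 ± 0.04) were the falls. The mean of the list ran from −0.04 to 0.08 in DEHP arrays and from −0.11 to 0.11 in controls, and DEHP replicate 6, where Abca1 and Apoe stood apart, was at −0.01. Single markers did stand apart in that array, in both directions, as seen after their values were examined. Adgre1, an adhesion receptor used as a macrophage marker in mouse, was at 0.98 there and at −0.63 to −0.41 in the other 5 DEHP arrays. Cd14, the lipopolysaccharide coreceptor of monocytes, was at 0.68 there and at −0.44 to −0.10 in the other 5. As with Abca1 at 0.55, Adgre1 and Cd14 were above every control in DEHP replicate 6. Other markers of the list were lower there than in the other 5 DEHP arrays. Among them were Lgals3 (−0.26, others 0.31 to 0.40), Mrc1 (−0.37, others −0.04 to 0.24) and Lyz2 (−0.44, others −0.11 to 0.04). Endothelial markers were lower in that array than in the other DEHP arrays, at −0.16 against 0.16 to 0.56. Over all arrays 4 of the 5 measured rose and 0 fell (0 lower at an unadjusted limma p under 0.05), with the smallest p for Tie1 (0.58 ± 0.11) and a larger rise for Emcn (0.64 ± 0.15), named after its value was seen. Fibroblast markers had 4 rises (among them Pdgfra, 0.90 ± 0.07) and 6 falls (among them Thy1, −1.25 ± 0.14) in 12, with a mean of −0.27 in DEHP replicate 6 and −0.09 to 0.01 in the other DEHP arrays. None of 7 fat cell markers passed limma in either direction, and 0 had an unadjusted p under 0.05. The part of these cell types in the changes of Apoe, Abca1 and Abcg1 was not tested.

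**Figure D4:**
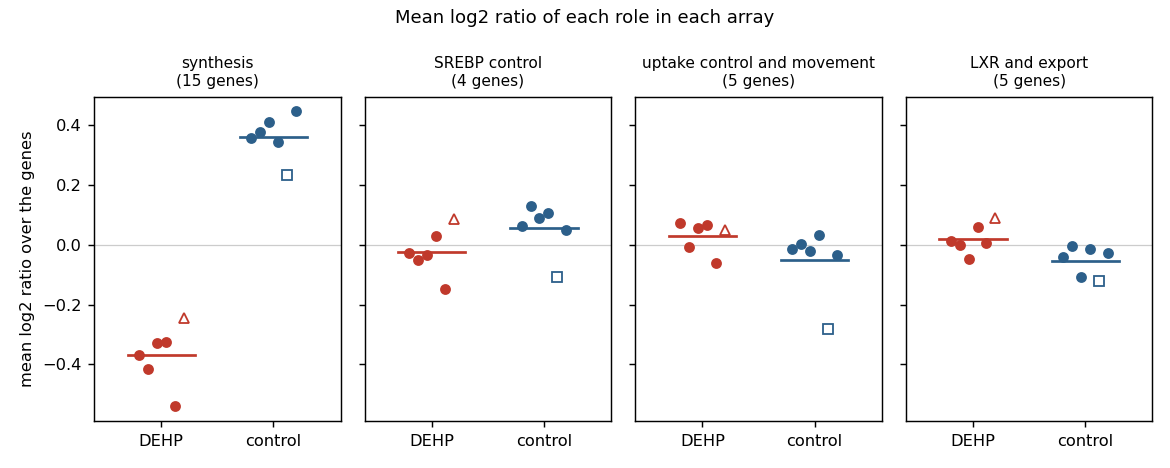
Mean log2 ratio over the measured genes of each role (y axis) in each array, with DEHP left of control, a line for the mean of 6 arrays, an open triangle for DEHP replicate 6 and an open square for control replicate 5. Synthesis lies below −0.24 in every DEHP array and above 0.23 in every control array, and in the other 3 roles the difference of the means is between −0.08 and 0.08.

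The means of the other roles hide these opposite moves. The mean over the 4 SREBP control genes was −0.03 ± 0.08 in DEHP arrays and 0.05 ± 0.09 in control arrays (SD over 6 arrays). Uptake control and movement averaged 0.03 ± 0.05 under DEHP and −0.05 ± 0.12 in controls, and LXR and export 0.02 ± 0.05 under DEHP and −0.05 ± 0.05 in controls. Synthesis averaged −0.37 ± 0.10 under DEHP and 0.36 ± 0.07 in controls.

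Of 35 other genes of sterol handling measured from a further list of 48, 10 rose, 5 fell and 20 did not pass, with a median log2 fold of 0.06. Over all genes, too, more rose than fell (14.4% against 10.2%), and whether the list differs from them was not tested. Lrp1, a large lipoprotein receptor of the cell surface, rose by 0.59 ± 0.04 on the log2 scale (adjusted p = 1.03e-06). Cyp27a1, which makes 27-hydroxycholesterol, rose by 1.08 ± 0.09 (adjusted p = 3.67e-06). The falls with the smallest p were those of Tmem97, a sterol-regulated membrane protein that binds NPC1 (−0.70 ± 0.09), and Rnf145, a sterol-responsive ubiquitin ligase that acts on SCAP in mouse (−0.48 ± 0.07). Vldlr, a receptor for very low density lipoprotein named after its value was seen, fell by 0.69 ± 0.11 on the log2 scale (adjusted p = 0.000514).

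Fatty acid genes that SREBP factors also drive fell in 11 of 15 measured and rose in 2, against 10.2% and 14.4% of all genes. Their median log2 fold was −0.51. Scd2 (−1.67 ± 0.08) and Fads2 (−1.35 ± 0.07), desaturases that act on stearate and on polyunsaturated fatty acids, had the smallest p among the falls. The elongase gene Elovl6, named after its value was seen, fell further than Fads2 (−1.46 ± 0.12). The phosphatidate phosphatase gene Lpin1 (1.23 ± 0.08) and the acyltransferase gene Gpam (0.53 ± 0.10), which act in glycerolipid synthesis, were the rises. Of 11 measured LXR partners and other LXR targets, 3 rose and 2 fell, against 14.4% and 10.2% of all genes. Whether this list differs from all genes was not tested. Ncoa1 (0.49 ± 0.07), a coactivator, and Rxra (0.23 ± 0.05), the partner of LXR on DNA, were among the rises, and Scd (−1.35 ± 0.08) and Lpcat3 (−0.33 ± 0.05), a phospholipid acyltransferase, were the falls. Scd is in both of these lists.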

How the data were processed

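RNA from 12 cultures was measured on Affymetrix arrays, 1 per culture. RMA is the tool named in the submitters' processing notes, without a version. The deposited values are linear ratios. For every probe set their log2 had a median within 1e-06 of 0, so values are relative to that median. The log2 of each ratio was used with no further normalization. Brightness over background is not held, so the number of arrays limits the precision. Of 27342 probe sets 15097 had 1 gene symbol; a gene with several took the lowest-numbered. DEHP was compared with control by limma 3.58.1 in R 4.3.3 (lmFit, eBayes, two-sided, Benjamini-Hochberg over all probe sets). Log2 folds are DEHP over control, ± SE. In a simulation of this comparison on 27342 probe sets with independent noise, limma recovered 97% of changes of 1 on the log2 scale and 79% of 0.5, with 187 calls of which 11 were false. Pairs of genes were compared by exact permutation of arrays (scipy 1.17.1). The genes and lists were chosen with earlier results of these data known. Every measured gene of the list is named; of other lists, at most 2 per direction with the smallest p, besides those said to be named after their values were seen. Sequences are RefSeq's (GRCr8); the sources used here name no build for the arrays. Alternatives are given in the closing section. Plots used matplotlib 3.10.9.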

Additional observations from a re-analysis of the deposited data

Results flagged for a closer look

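In 60 groups of 6 arrays (30 probe sets, 2 groups each), 8 had an array far from the other 5, where chance gives about 1 in 20. Of these, 3 were in DEHP replicate 6, 2 in control replicate 5 and 3 in other arrays. In DEHP replicate 6, Abca1 was at 0.55 (others −0.59 to −0.46), Apoe at 0.33 (others 0.79 to 0.92) and Idi1 at −0.10 (others −0.98 to −0.65). In control replicate 5, Sc5d was at 0.21 (others 0.50 to 0.57) and Soat1 at −0.71 (others −0.18 to 0.10). In DEHP replicate 5, Cyp51 was at −0.75 (others −0.41 to −0.36) and Stard4 at −0.38 (others −0.01 to 0.05). In control replicate 4, Nr1h2 was at −0.050 (others −0.29 to −0.22). The cause of these values was not tested.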

How the results depend on the processing

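Under 23 alternatives, 15 of the 29 genes kept both direction and call, 14 of them called. The 14 falls of the synthesis enzymes became 14 to 15 with 1 array left out, and 0 rose. With 1 array left out, all genes lower numbered 1272 to 1756 and higher 1698 to 2132. In the same runs 18 to 19 of the 29 genes were lower and 4 to 6 higher, SREBP control had 0 to 2 higher, and LXR and export had 1 to 2 lower. Against a minimum fold of 1.2 (limma's treat), 445 genes were lower and 425 higher, and of the 29 genes 12 were lower, 11 of them synthesis enzymes, and 2 higher; SREBP control then had 0 lower and 0 higher, uptake control and movement 0 lower and 1 higher, and LXR and export 1 higher. At an adjusted p under 0.01, 1305 genes were higher and SREBP control had 0 higher. After cyclic loess, which fits along a level that ratios do not hold, SREBP control had 1 lower, uptake control and movement 0 lower, and LXR and export 2 lower and 1 higher. LXR and export had 2 lower (Abca1 added) with array weights, after quantile normalization and without both control replicate 5 and DEHP replicate 6. SREBP control had 2 higher with array weights and 0 without both. Calls over all genes also rose, from 1460 lower and 2067 higher as reported. They were 2182 and 2854 with array weights, 1728 and 2488 after quantile normalization, and 1825 and 2244 without both. Deviations of same-numbered arrays correlated at 0.344, 0.126, 0.347, 0.246, 0.772 and 0.0717 for replicates 1 to 6. The correlation was over 0.1 for 5 of 6 numbers but not for replicate 6, and 2 of 6 DEHP arrays correlated best with their own number, so the arrays were not taken as pairs. With the replicate number as a block, 15 synthesis enzymes were lower, since Ebp passed (−0.21, adjusted p = 0.0198), and no other call among the 29 genes changed. That block gave 1834 lower and 2518 higher over all genes. Nr1h3, at 0.0025 as reported, was −0.027 with array weights, −0.020 after quantile normalization, −0.044 without both arrays, and −0.041 to 0.047 with 1 array left out. Soat1 was −0.061 after cyclic loess, −0.040 without both, and −0.022 (without control replicate 5) to 0.14 with 1 array left out. Where a call was lost, the cause was not tested.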
